A study of Moricandia arvensis and Moricandia suffruticosa and Moricandia moricandioides with 78 samples.

Results

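Severe drought in the leaves of Moricandia arvensis (Mav) was examined by comparing 5 libraries labelled water stress with 5 labelled control, both sampled at T2. These 10 of the 78 libraries of the series were chosen by their labels alone (species, sampling time and treatment), so no measured value entered the choice. Mav is a wild relative of the Brassica crops, and it carries out C2 photosynthesis, in which the CO2 set free by photorespiration is recaptured inside the leaf. At T2 the stomatal conductance (Gs) of the droughted plants had fallen to 10% of the value recorded before water was withheld.

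All plants of both groups were of 1 line and were raised together in pots in 1 growth room, with the pots sealed in plastic bags from the start of the treatment. Control plants had the water lost from the pot replaced every day, while droughted plants received none. Fully expanded leaves were collected at midday from separate plants, and the labels call the libraries biological replicates, so that p-values measure the spread between plants grown in 1 experiment. Control replicates are named A9c, A15c, A16c, A22c and A24c and droughted replicates A28s, A35s, A37s, A39s and A44s, and values listed per library follow this order. Another 19 Mav libraries served only to place the response in time: 5 well-watered ones of T0 (before drying), 4 well-watered and 1 droughted of T1 (Gs at 50%), and 5 well-watered and 4 rewatered ones of RW, by which time Gs had returned to 100%. The C3 relative Moricandia moricandioides (Mmo), with 3 droughted and 2 control libraries at T2, was used for a single comparison of the response between species.

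A leaf that runs out of water closes its stomata, so that CO2 enters slowly while light is still absorbed. The Calvin-Benson cycle then lacks its substrate, and Rubisco takes up more oxygen, whose product is recycled by the photorespiratory pathway through chloroplast, peroxisome and mitochondrion. Leaves of many plants answer severe water shortage with abscisic acid, with sugars and amino acids that hold water, with enzymes that remove reactive oxygen, and in the end with the breakdown of chlorophyll and protein.

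Read totals were 29012042 to 37783763 counts in the controls and 22614972 to 30395011 in the droughted libraries, counted on 33602 Arabidopsis coding sequences. A35s stood apart from the other droughted libraries, with counts on 21375 features against 24347 to 24981 and with 4.61% of its counts on plastid-encoded features. That share was 0.631 to 1.22% in the controls, and 2.675%, 0.970%, 2.468% and 0.365% in A28s, A37s, A39s and A44s. A28s and A44s were nearly alike: the median squared difference of their counts was 3.35 times that of pure counting noise, against 18.5 to 90.4 times for the other pairs of droughted libraries. They differed by more than sampling noise, and in the plastid share given above, and their labels are separate. Whether they stem from 1 plant or library is not known. If they do, the main fit counts 1 plant as 2. They were kept as 2 libraries, and the counts of changed genes are also given with them summed. The file names place A9c and A15c on sequencing lane 1, A16c, A22c and A37s on lane 7, and the other 5 libraries on lane 2, of which A24c is the sole control, so that lane and group are partly confounded.

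Of 19613 genes tested, 2273 (11.6%) were higher and 3252 (16.6%) were lower in drought, at an adjusted p under 0.05 and a log2 fold change beyond 1 in either direction. Together the 5525 called genes made up 28.2% of those tested, while the median log2 fold change of all tested genes was -0.01. The called rises had a median of 1.73 on the log2 scale and the called falls a median of -1.92, and the falls also held more of the large changes, with 690 genes down over 8-fold against 399 up. The droughted and control libraries did not overlap at all in 1802 of the genes that rose and 2525 of those that fell, beside 31.9% of all genes tested. With A28s and A44s summed the counts were 2289 higher and 3096 lower, and 2153 and 2933 of these genes were the ones called before. Without A35s they were 2242 and 3399. With lane as a term they were 1904 and 2677, of which 1662 and 2394 had been called before.

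Over the genes called at T2, the 1 droughted library of T1 lay between the T2 groups. The rewatered libraries lay within the range of well-watered leaves. Since these genes were called from the T2 libraries, whether the response as a whole was larger at T2 than at T1 cannot be read from them. Over the genes called higher at T2, the median log2 ratio to the mean of the T2 controls was 1.40 to 1.76 in the 5 droughted libraries, and over the genes called lower it was -1.79 to -1.48. Those values describe the genes chosen, whereas the libraries of other times took no part in the choice. The single droughted library of T1 stood at 0.86 and -0.86, between the droughted and control libraries of T2. In the 4 rewatered libraries the medians were -0.08 to 0.20 and -0.35 to -0.14, inside the range of the well-watered libraries, which ran from -0.26 to 0.24 and from -0.52 to 0.24 over all 4 sampling times. Within lane 7 the droughted A37s stood at 1.65 and -1.48, against -0.06 and 0.19 in A16c and 0.10 and -0.32 in A22c. These libraries took part in the choice of genes, so their distance does not test an effect of lane.

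**Figure D1:**
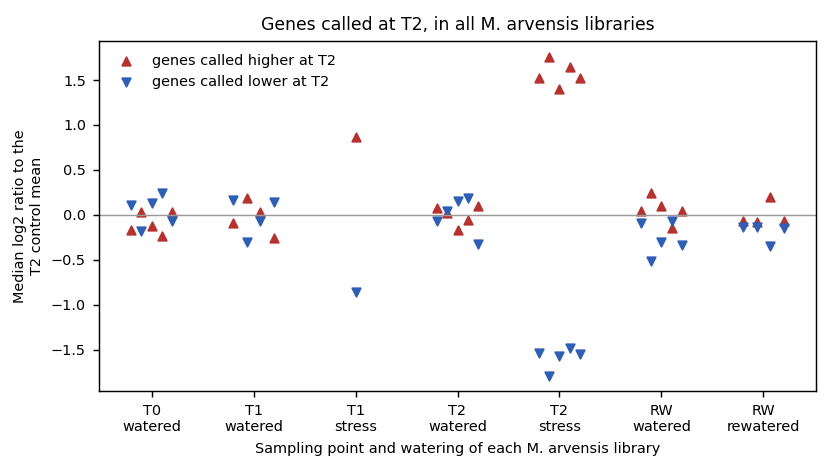
Median log2 ratio to the mean of the T2 controls (vertical axis) in each of the 29 Mav libraries, over the 2273 genes called higher at T2 (upward triangles) and the 3252 called lower (downward triangles), grouped by sampling time and watering. The 5 droughted T2 libraries lie beyond all others, the droughted T1 library lies between, and the 4 rewatered libraries lie among the well-watered ones. The genes were called from the T2 libraries, so the outer place of the droughted T2 libraries follows from the choice.

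Well-watered leaves of other days give a second yardstick. All 5 droughted libraries lay beyond all 19 well-watered Mav libraries in 1099 of the 2273 genes that rose (48.4%) and in 1579 of the 3252 that fell (48.6%). For the rest, some well-watered leaf, a T2 control or one of another day, reached the droughted level. In 49 of the called genes the 5 T2 controls were themselves above all 14 other well-watered libraries, and in 64 they were below them.

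Genes of carbon fixation were among the falls. Names were taken from the study's own tables of genes, which were drawn from contrasts that include these droughted libraries, so a count over named genes is not independent evidence of direction: of 598 tested genes with a name or term there, 91 rose and 192 fell. Counts for a gene list, here and below, stand beside the 16.6% of all tested genes that fell and the 11.6% that rose. For the Calvin-Benson cycle, 8 of 11 named and tested genes fell and none rose, with a median log2 fold change of -1.35. Among the 84 plastid-encoded features tested, 6 rose, 6 fell and their median was 0.34. Their share of counts ran from 0.365% in A44s to 4.61% in A35s among the droughted libraries, so a common change in them could not be judged. In bulk leaf RNA, fewer cells of a type and less RNA per cell cannot be told apart.

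Rubisco fixes CO2, and its small subunit is made from nuclear genes. The small subunit feature AT5G38410 held 13440, 17330, 16940, 7388 and 15480 CPM (counts scaled to 1000000 per library) in the controls. In the droughted libraries it held 1398, 1508, 1280, 1198 and 1422 CPM. The groups stood far apart, with the lowest control, A22c, still above every droughted library, and the difference was 10.4-fold (log2 fold change -3.37 ± 0.26 (SE), adjusted p = 5.93e-06). The other small subunit feature, AT1G67090, ranged over 4697 to 10170 CPM in the controls and 1120 to 2564 CPM in drought, where A35s was the highest (log2 fold change -2.45 ± 0.31 (SE), adjusted p = 0.000105). Reads of near-identical small subunit copies may be shared among features, so the 2 values are not fully separate.

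Rubisco activase, which frees Rubisco of bound inhibitors, changed less. Its abundant form, AT2G39730, went from 13060 ± 3100 CPM (SD, n = 5) to 7287 ± 1087 CPM, a log2 fold change of -0.84 ± 0.21 (SE), adjusted p = 0.00857, which did not reach the fold threshold. The scarce activase feature AT1G73110 fell from 60.5 ± 8.68 to 25.8 ± 2.45 CPM (log2 fold change -1.23 ± 0.14 (SE), adjusted p = 6.07e-05). Enzymes further on in the cycle were lower as well.

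Phosphoglycerate kinase (PGA kinase, AT1G56190), which with GAPDH turns the first product of fixation into triose phosphate, fell 7.02-fold, from 126 to 219.7 CPM to 6.49 to 37.2 CPM, with A35s lowest (log2 fold change -2.81 ± 0.40 (SE), adjusted p = 0.00024). GAPDH (AT1G12900) fell 4.72-fold, from 2512 to 5364 to 451 to 1242 CPM, although its level in the other well-watered libraries reached down to 1126 CPM. Sedoheptulose bisphosphatase (SBPASE, AT3G55800), which serves the regeneration of the CO2 acceptor, went from 1791 ± 216 to 696 ± 70.2 CPM with no overlap (log2 fold change -1.36 ± 0.16 (SE), adjusted p = 6.07e-05). FBP aldolase (AT2G21330) stayed within 2-fold, at -0.61, and triose phosphate isomerase (AT2G21170) and transketolase (AT2G45290) had log2 fold changes of -1.35 and -1.20, both called lower.

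Photorespiration, the source of the CO2 that a C2 leaf recaptures, showed the same direction. Among its 11 named genes 5 fell and none rose, and the median was -1.61. The 5 lay in the later part of the pathway and at its entry. Glycolate oxidase (AT3G14420 and AT3G14415), alanine:glyoxylate aminotransferase (AT2G13360) and glycerate kinase (AT1G80380) stood at -0.75, -0.70, 0.19 and 0.03 on the log2 scale and were not called.

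Glycine decarboxylase, the mitochondrial complex that frees this CO2 from glycine, was lower in 2 of its subunit features. The H protein (AT1G32470) had 1746, 1722, 2109, 1330 and 1672 CPM in the controls. Under drought it had 240.3, 464, 265, 237 and 223 CPM. A35s was the highest of the droughted libraries and still below every control, and the fall was 6.004-fold (log2 fold change -2.59 ± 0.24 (SE), adjusted p = 1.79e-05). The T protein (aminomethyltransferase, AT1G11860) fell 5.25-fold, from 1386 to 2413 to 319.7 to 465 CPM. For the P protein (AT2G26080) the log2 fold change was -1.70, with an adjusted p of 0.0726, and it was not called.

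Serine hydroxymethyltransferase (AT4G37930), the partner of glycine decarboxylase, fell 4.01-fold, from 5333 to 7530 to 884 to 1977 CPM (log2 fold change -2.005 ± 0.27 (SE), adjusted p = 0.000176). Hydroxypyruvate reductase (AT1G68010), a peroxisomal step on the way back to the chloroplast, went from 1563 ± 346 to 481 ± 112 CPM. Phosphoglycolate phosphatase (AT5G36700), which opens the pathway, went from 259 ± 52.6 to 84.7 ± 15.3 CPM, a log2 fold change of -1.61 ± 0.19 (SE), adjusted p = 6.07e-05. Neither gene overlapped between the groups.

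Photorespiration also frees ammonia, which glutamine synthetase and glutamate synthase bind again. Of 16 nitrogen and aminotransferase genes, 7 fell and 3 rose (median -0.41), and with lane as a term 6 fell and 2 rose. Cytosolic glutamine synthetase (GS1, AT1G66200) was at 1398, 1449, 1338, 1016 and 1150 CPM in the controls. It was at 152, 148, 222, 151 and 146 CPM in drought, a fall of 7.75-fold (log2 fold change -2.96 ± 0.19 (SE), adjusted p = 2.56e-06). A37s was the highest droughted library, and no droughted library came near a T2 control. The T2 controls were themselves high, with a median of 1271 CPM on the scaling over all Mav libraries. Well-watered libraries of other days held 245 to 1178 CPM, with medians of 487 at T0, 448 at T1 and 495 at RW. Another GS1 feature, AT1G48470, rose by 2.31 on the log2 scale.

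Against the T2 controls, the plastid enzymes of ammonia capture fell less. Plastidic GS2 (AT5G35630) went from 2953 ± 516 to 1355 ± 156 CPM (log2 fold change -1.12 ± 0.18 (SE), adjusted p = 0.000442), and ferredoxin-dependent glutamate synthase (Fd-GOGAT1, AT5G04140) from 1354 ± 292 to 367 ± 162 CPM (log2 fold change -1.88 ± 0.31 (SE), adjusted p = 0.000666). The chloroplast dicarboxylate transporter Dit1 (AT5G12860), which brings carbon skeletons to these enzymes, fell 3.29-fold. Its other well-watered libraries held 104 to 612.8 CPM, which overlaps the droughted range. Asparagine synthetase 3 (ASN3, AT5G10240) fell 5.80-fold, from 8.44 to 15.6 to 1.298 to 2.31 CPM. In the other direction, the aspartate aminotransferase ASP3 (AT5G11520) rose 3.45-fold, from 82.3 to 206 to 289.8 to 586 CPM, with no overlap.

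**Figure D2:**
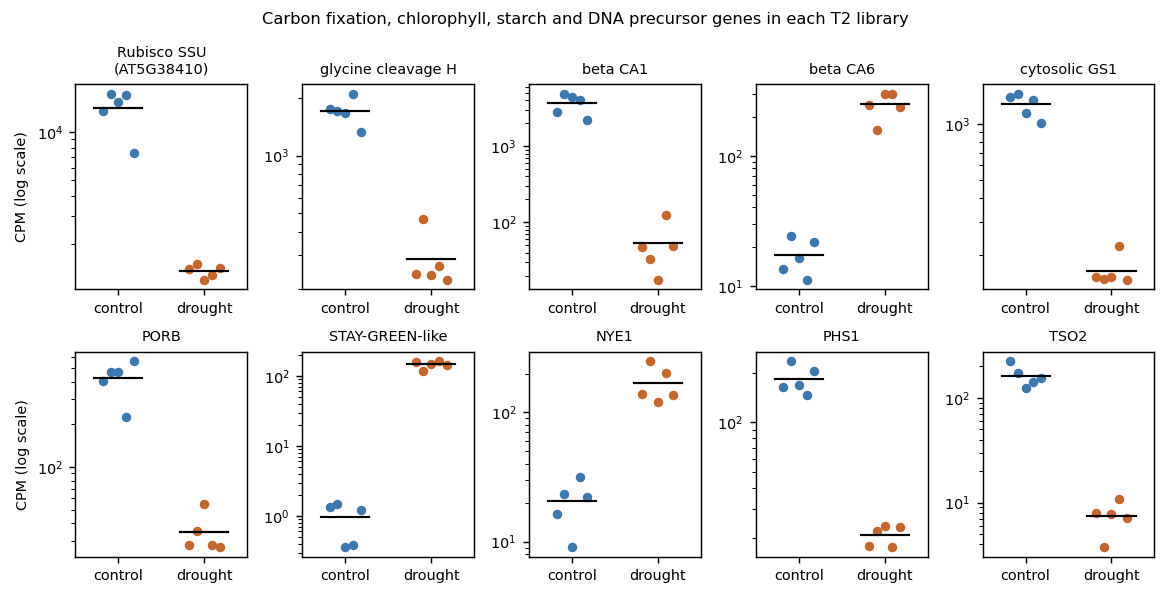
CPM on a log scale (vertical axes, 1 panel per gene) in each control and droughted T2 library, points for libraries and bars for group means, for genes of carbon fixation, photorespiration, nitrogen, chlorophyll, starch and DNA precursors. In each of the 10 panels the groups do not overlap, with beta CA6, the STAY-GREEN-like gene and NYE1 higher and the other 7 genes lower in drought.

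Of 28 genes named as candidates for a C4 cycle, carbonic anhydrases included, 2 rose, 6 fell and 20 were not called, and the median was -0.24. The share called was close to the 28.2% of all genes tested. Pyruvate orthophosphate dikinase (PPDK, AT4G15530) was at -0.17 on the log2 scale, and the NADP-malic enzyme features AT5G11670 and AT1G79750 were at 0.52 and -0.07. The called genes were led by carbonic anhydrases, which interconvert CO2 and bicarbonate.

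Beta CA1 (AT3G01500), the abundant chloroplast form, had 2768, 4870, 4004, 2221 and 4473 CPM in the controls. Under drought it had 47.9, 32.6, 123, 17.5 and 48.7 CPM. This was the largest fall among genes with a name, 67.9-fold (log2 fold change -6.09 ± 0.55 (SE), adjusted p = 1.45e-05), and even the closest pair of libraries, A22c and A37s, stood far apart. The 14 other well-watered libraries held 1568 to 7060 CPM. Per length, its mean went from 3116 ± 829 to 50.6 ± 39.5 TPM (length-scaled transcript counts).

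Beta CA6 (AT1G58180), the mitochondrial form in Arabidopsis, moved the opposite way, from 13.4, 23.9, 11.1, 21.6 and 16.3 CPM in the controls to 248, 157, 299, 300.1 and 238 CPM in drought. Every droughted library exceeded every T2 control, with a rise of 14.4-fold (log2 fold change 3.85 ± 0.27 (SE), adjusted p = 3.85e-06). Other well-watered libraries held 2.94 to 220.4 CPM and thus overlapped the droughted range. Alpha CA1 (AT3G52720) was 235 to 402 CPM in the T2 controls and 96.5 to 164 CPM in drought (log2 fold change -1.31). Its 14 other well-watered libraries held 15.5 to 163 CPM, so that the T2 controls stood above them all, and against all 19 well-watered libraries the log2 fold change was 0.02. Beta CA3, beta CA5 and the 3 gamma forms were not called.

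Malate dehydrogenases (MDH) also divided by feature. A peroxisomal form, AT5G09660, fell 2.58-fold, from 1117 to 1903 to 449.5 to 619.5 CPM, while the other, AT2G22780, rose 3.23-fold, from 18.5 to 42.1 to 60.7 to 116 CPM. The plastidic NAD-dependent form (AT3G47520) fell 4.11-fold, from 21.6 to 42.2 to 7.25 to 10.4 CPM. Of the carboxylating and decarboxylating enzymes, PEP carboxylase AT2G42600 went from 862 ± 158 to 369 ± 110.3 CPM (log2 fold change -1.22 ± 0.23 (SE), adjusted p = 0.00162) and PEPCK (AT4G37870) from 1922 ± 531 to 746 ± 328 CPM (log2 fold change -1.36 ± 0.30 (SE), adjusted p = 0.00402). With lane as a term PEPCK was at -0.92, adjusted p = 0.0454 and no longer passed the fold threshold. Against all 19 well-watered libraries neither gene was called, with PEP carboxylase at -0.74, adjusted p = 0.0287, and PEPCK at -0.69, adjusted p = 0.15.

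The few chlorophyll genes with a name divided by role. All 3 named genes of chlorophyll breakdown rose and 4 of 5 of chlorophyll synthesis fell, with medians of 3.39 and -2.55 beside -0.01 over all genes. For breakdown and senescence, 13 of 16 genes first listed had neither a name nor a term in the study and were left out. For synthesis this held for 12 of 17.

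The STAY-GREEN-like protein (AT4G11910) belongs to the family that removes magnesium from chlorophyll at the start of its breakdown. Controls held 1.32, 1.50, 0.381, 1.21 and 0.355 CPM. Droughted leaves held 159.7, 119, 163, 147 and 142 CPM. It was almost silent in the first group and evenly high in the second, a rise of 151-fold (log2 fold change 7.24 ± 0.43 (SE), adjusted p = 1.74e-06). The droughted T1 library held 21.8 CPM and the rewatered ones 0.647 to 1.38 CPM.

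Its relative NYE1 (AT4G22920) rose 8.27-fold, from 9.02 to 31.6 to 121 to 249 CPM (log2 fold change 3.05 ± 0.34 (SE), adjusted p = 4.68e-05). NYC1 (AT4G13250), the chlorophyll b reductase, rose 10.5-fold, from 8.96 to 69.1 to 338 to 536 CPM. Its level in well-watered leaves of other days was 49.4 to 398 CPM, which overlaps the droughted range.

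On the synthesis side, PORB (AT4G27440), which reduces protochlorophyllide in the light, had 402, 467, 226, 557 and 464 CPM in the controls and 28.2, 35.5, 28.1, 54.8 and 27.1 CPM in drought. The lowest control, A16c, was still above the highest droughted library, A39s, and the fall was 12.2-fold (log2 fold change -3.61 ± 0.30 (SE), adjusted p = 8.41e-06). PORC (AT1G03630) fell 2.34-fold, from 431 ± 30.5 to 184 ± 11.2 CPM. The magnesium chelatase subunit CHLI2 (AT5G45930) fell 5.84-fold, from 62.9 to 94.0 to 8.71 to 14.5 CPM. PORA (AT5G54190), far scarcer at 0.953 to 8.96 CPM in the controls, was at -3.53 on the log2 scale and at -4.44 without A39s, and lost its call with lane as a term (adjusted p = 0.0552). Reads of PORA and PORB may be shared.

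Lutein synthesis went with chlorophyll synthesis: lycopene epsilon cyclase (LUT2, AT5G57030) fell 4.39-fold, from 59.6 to 87.2 to 10.2 to 24.6 CPM (log2 fold change -2.13 ± 0.24 (SE), adjusted p = 5.89e-05). Of the vitamin E genes, tocopherol cyclase (VTE1, AT4G32770) rose 2.57-fold (log2 fold change 1.36 ± 0.35 (SE), adjusted p = 0.00866) and homogentisate phytyltransferase (HPT1, AT2G18950) rose by 1.14 on the log2 scale. With lane as a term VTE1 was at 0.97, adjusted p = 0.183.

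**Figure D3:**
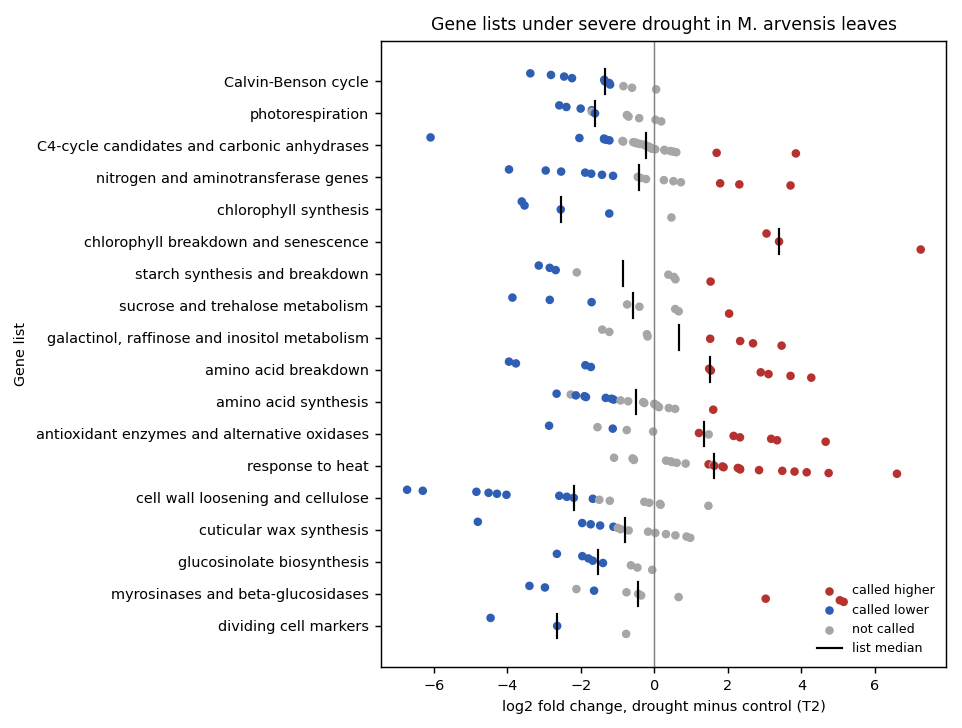
Log2 fold change of drought over control (horizontal axis) for each named and tested member of 18 gene lists (rows), with members called higher, called lower or not called in different colours and a vertical bar at the list median. Chlorophyll breakdown (median 3.39) and response to heat (1.63) lie to the right, and chlorophyll synthesis (-2.55) and cell wall genes (-2.19) to the left.

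Starch breakdown was lower at 3 of its steps. Of 8 named starch genes 3 fell and 1 rose (median -0.86), beside 16.6% and 11.6% of all genes tested. Plastidic starch phosphorylase (PHS1, AT3G29320) went from 184 ± 35.6 CPM (SD, n = 5) in the controls to 20.9 ± 2.99 CPM in drought. Both groups were tight and far apart, with a fall of 8.84-fold (log2 fold change -3.14 ± 0.18 (SE), adjusted p = 1.74e-06). The glucanotransferase DPE2 (AT2G40840), which handles maltose exported from the chloroplast at night, fell 6.43-fold, from 60.3 to 127 to 10.2 to 19.6 CPM. PHS2 (AT3G46970), its cytosolic counterpart in glucan turnover, was at 14.3 to 287 CPM in the controls and 12.7 to 18.8 CPM in drought, where A16c fell inside the droughted range (log2 fold change -2.85, and -2.15 without A22c). The alpha-amylase AMY1 (AT4G25000) rose 2.88-fold, from 3.13 to 10.6 to 13.3 to 30.96 CPM.

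Sucrose and trehalose genes moved unequally. SUS1 (AT5G20830), a sucrose synthase, rose 4.09-fold, from 35.8 to 72.6 to 147 to 358 CPM, with A37s highest (log2 fold change 2.03 ± 0.29 (SE), adjusted p = 0.000229), although other well-watered libraries held 42.5 to 311 CPM. Of the trehalose genes, TPPB (AT1G78090), a phosphatase of trehalose 6-phosphate, fell 14.5-fold, from 1.48 to 4.63 to 0 to 0.243 CPM. TPPE (AT2G22190) fell 7.18-fold and TPS8 (AT1G70290), of the class that carries synthase and phosphatase domains, fell 3.27-fold. TPPE lost its call with lane as a term (adjusted p = 0.0743).

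Genes of galactinol, raffinose and inositol, which yield protective sugars, included 4 that rose and none that fell of 8 tested (median 0.67). With lane as a term 3 rose. MIPS1 (AT4G39800), the first enzyme of inositol synthesis, had 619, 439, 662, 315 and 311 CPM in the controls. In drought it had 4244, 1359, 3239, 1765 and 4441 CPM. The lowest droughted library was A35s and no library overlapped, with a rise of 6.42-fold (log2 fold change 2.68 ± 0.38 (SE), adjusted p = 0.000245). The T2 controls were themselves high, since the 14 other well-watered libraries held 15.69 to 104 CPM.

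Galactinol synthase 1 (GolS1, AT2G47180) rose 5.04-fold, from 0.680 to 2.85 to 4.07 to 11.3 CPM (log2 fold change 2.33 ± 0.47 (SE), adjusted p = 0.00203), and MIPS2 (AT2G22240) rose by 1.52 on the log2 scale. SIP2 (AT3G57520), an enzyme that splits raffinose, rose 10.99-fold, from 1.87 to 33.5 to 129 to 405 CPM. It was also high after rewatering, at 211 to 820.3 CPM in the 4 rewatered libraries, and the highest well-watered library of that time reached 663 CPM. GolS4 and the alpha-galactosidases AGAL1 and AGAL2 were not called.

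Hormone genes moved in opposite directions within a pathway. NCED enzymes make the committed step of abscisic acid synthesis. NCED3 (AT3G14440), the drought form in Arabidopsis, had 27.5, 16.2, 10.4, 21.04 and 17.9 CPM in the controls and 285, 100.5, 395, 121 and 297 CPM in drought. All droughted libraries were above all controls, A35s and A39s least so, and the rise was 12.9-fold (log2 fold change 3.69 ± 0.42 (SE), adjusted p = 5.86e-05). The droughted T1 library held 177 CPM, and after rewatering the level was 28.9 to 72.2 CPM.

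NCED5 (AT1G30100) went the other way, from 1.25 to 6.09 CPM to 0 to 0.195 CPM, with A35s at 0 (log2 fold change -4.93 ± 0.68 (SE), adjusted p = 0.000194). NCED9 (AT1G78390) was at -0.87 on the log2 scale and was not called. The glucosidase BGLU18 (AT1G52400), which frees abscisic acid from its glucose ester in Arabidopsis, fell by 1.64 on the log2 scale. Only NCED3 of the 5 named genes of abscisic acid synthesis and release rose. The number that fell was 2, but 1 without A35s and 1 with lane as a term, while NCED5 kept its call in both settings.

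Genes of growth hormones were also among the falls. IPT3 (AT3G63110), a cytokinin synthesis enzyme, had 12.5, 5.37, 4.88, 4.95 and 7.54 CPM in the controls. Its droughted values were 0.415, 0, 0.312, 0.455 and 0.0300 CPM, a fall of 28.6-fold (log2 fold change -4.84 ± 0.73 (SE), adjusted p = 0.000345). All droughted libraries were near 0 and none came near a control. GA3OX1 (AT1G15550), which makes active gibberellin, fell 8.58-fold, from 3.44 to 8.93 to 0.415 to 1.26 CPM, and the gibberellin gene KAO2 (AT2G32440) fell by 1.24 on the log2 scale. Levels of GA3OX1 in the other well-watered libraries were 0.139 to 3.58 CPM, which overlaps the droughted range. Of 12 genes of jasmonate, ethylene, gibberellin and brassinosteroid synthesis, 3 fell and none rose (median -0.24). The share called was close to the 28.2% of all genes tested.

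Amino acid breakdown rose more than it fell, with 6 of 10 genes up and 4 down (median 1.51). Ornithine aminotransferase (DELTA-OAT, AT5G46180), which turns ornithine into a precursor of proline and glutamate, had 15.1, 19.7, 4.76, 20.8 and 16.6 CPM in the controls. Drought brought it to 270.2, 337, 286, 300.0 and 288 CPM. The droughted values were nearly equal and the controls low throughout, A16c lowest, with a rise of 19.2-fold (log2 fold change 4.27 ± 0.35 (SE), adjusted p = 8.41e-06). It was the sole gene of proline metabolism with a name and a test.

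LKR/SDH (AT4G33150), the bifunctional enzyme of lysine breakdown, rose 13.01-fold, from 16.7 to 75.6 to 354 to 733 CPM (log2 fold change 3.70 ± 0.43 (SE), adjusted p = 6.68e-05). The aldehyde dehydrogenase ALDH7B4 (AT1G54100) rose 8.60-fold, from 158 to 413 to 1690 to 2575 CPM. Threonine aldolase 1 (THA1, AT1G08630) rose 7.42-fold, from 12.2 to 89.7 to 219 to 496 CPM. In none of these genes did the groups overlap.

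Branched-chain amino acids showed both directions. The thiamin diphosphate-binding proteins AT5G34780 and AT1G21400 rose by 1.54 and 1.49 on the log2 scale, AT5G34780 from 15.8 ± 2.32 to 45.8 ± 5.92 CPM. The branched-chain aminotransferase BCAT-1 (AT1G10060) fell 15.5-fold, from 2.29 to 54.1 to 0.390 to 1.98 CPM (log2 fold change -3.95, and -3.27 without A16c).

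Amino acid synthesis was lower at 7 of 20 genes and higher at 1 (median -0.51), beside 16.6% and 11.6% of all genes tested. ATP-PRT1 (AT1G58080), the first enzyme of histidine synthesis, fell 6.32-fold, from 72.2 to 130.3 to 11.1 to 22.02 CPM (log2 fold change -2.66 ± 0.22 (SE), adjusted p = 8.85e-06). ASA1 (AT5G05730), of tryptophan synthesis, fell 4.39-fold. The riser was a phosphoglycerate dehydrogenase of serine synthesis (PGDH, AT1G17745), up 3.03-fold, from 64.3 to 307 to 329 to 714 CPM. Its relative EDA9 (AT4G34200) fell by 1.86 on the log2 scale. PGDH lost its call with lane as a term (adjusted p = 0.0745), and other well-watered libraries held up to 1043 CPM.

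Protection against reactive oxygen rose at 6 of 12 genes and fell at 2 (median 1.34). Superoxide dismutases turn superoxide into hydrogen peroxide. The cytosolic form CSD1 (AT1G08830) had 37.6, 110.3, 50.3, 31.4 and 58.9 CPM in the controls and 218, 942, 384, 839 and 222 CPM in drought. The droughted libraries were uneven, with A35s and A39s highest, but all lay above all T2 controls, a rise of 9.03-fold (log2 fold change 3.17 ± 0.52 (SE), adjusted p = 0.000553). The plastid form CSD2 (AT2G28190) rose 4.46-fold, from 12.6 to 55.1 to 79.4 to 226 CPM, and the iron/manganese form AT3G56350 by 2.33 on the log2 scale. Both CSD genes reached the droughted range in some well-watered leaf of another day, with up to 394 CPM for CSD1 and up to 360.0 CPM for CSD2.

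Alternative oxidase lets mitochondria pass electrons to oxygen without making ATP. Its form 1D (AT1G32350) went from 3.04, 1.93, 3.89, 2.44 and 0.296 CPM in the controls to 54.8, 69.1, 74.3, 38.8 and 54.8 CPM in drought, 25.2-fold higher (log2 fold change 4.66 ± 0.51 (SE), adjusted p = 4.77e-05). Even the lowest droughted library, A39s, was far above the highest control, A16c. The mitochondrial dicarboxylate carrier DIC2 (AT4G24570) rose by 3.34. Among peroxidases of the chloroplast, TL29 (AT4G09010) fell 7.28-fold, from 152 to 387 to 33.03 to 43.7 CPM (log2 fold change -2.86 ± 0.23 (SE), adjusted p = 8.34e-06), and the stromal form SAPX (AT4G08390) fell by 1.13 on the log2 scale.

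Genes that the study listed under response to heat rose at 13 of 23 and fell at none (median 1.63). The largest rise among them was AT1G17870, at 0.794, 3.47, 0.724, 0.555 and 0.502 CPM in the controls and 69.95, 154, 157, 133 and 71.6 CPM in drought. A15c was the highest control and far below the lowest droughted library, and the log2 fold change was 6.596 ± 0.63 (SE), adjusted p = 1.89e-05, or 7.52 without A15c. AT4G21320 rose 26.7-fold, from 1.27 to 8.88 to 94.3 to 154 CPM. Neither ID was paired with a name in the tables used here.

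**Figure D4:**
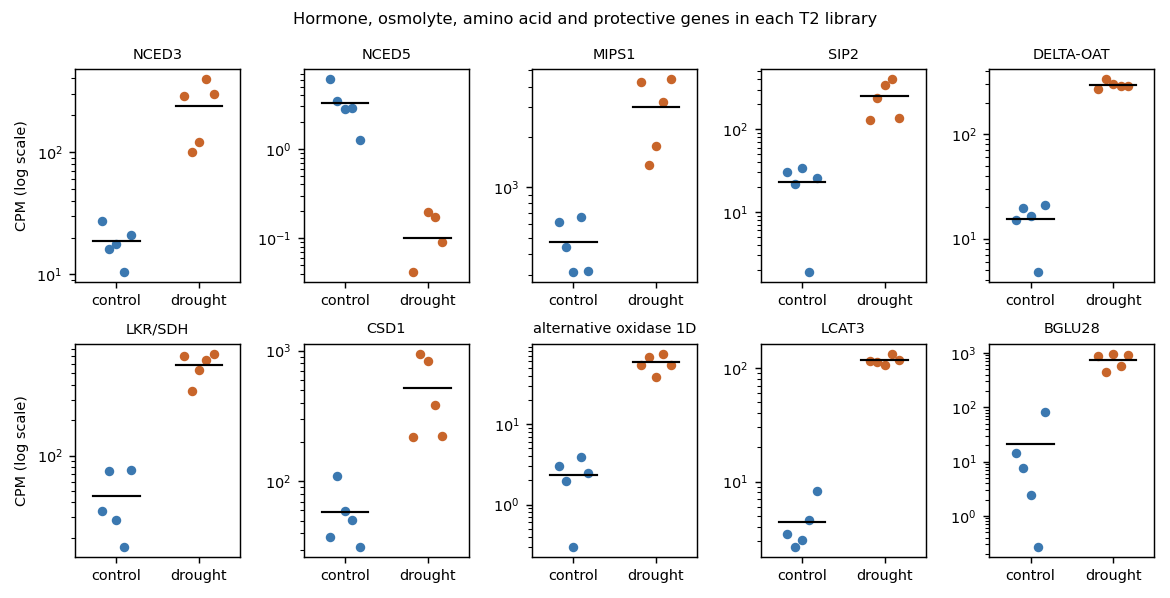
CPM on a log scale (vertical axes, 1 panel per gene) in each control and droughted T2 library, points for libraries and bars for group means, for hormone, osmolyte, amino acid, protective and glucosidase genes. NCED5 falls and the other 9 genes rise, with no overlap in any panel, and A35s is at 0 for NCED5 and cannot be drawn on this scale.

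Cell wall loosening genes were lower in many of those with a name or term in the study. Of 38 genes first listed for cell wall loosening and cellulose, 20 had neither and were left out. Of 17 named or listed genes 10 fell and none rose (median -2.19), and of the 16 genes the study placed under xyloglucan metabolism 7 fell and 1 rose. AT5G65730, of that term, had 8.20, 44.6, 60.2, 2.48 and 123 CPM in the controls and 0.166, 0.0419, 1.53, 0.228 and 0.240 CPM in drought. The controls spread widely but none came down to the droughted range, and the log2 fold change was -6.72 ± 1.17 (SE), adjusted p = 0.000867, or -8.05 without A37s. AT2G06850, of the same term, was at -6.30, and at -7.31 without A37s. The endoglucanase gene GH9C2 (AT1G64390), which acts on cellulose, fell 19.4-fold, from 7.70 to 80.0 to 0.168 to 2.36 CPM, with the top control A16c at 80.0 CPM (log2 fold change -4.28, and -3.25 without A16c).

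Genes of wax and long-chain fatty acids fell at 5 of 14 and rose at none (median -0.81), beside 16.6% and 11.6% of all genes tested. KCS enzymes elongate fatty acids for wax and other lipids. KCS14 (AT3G10280) fell 3.90-fold, from 35.2 to 76.01 to 8.16 to 18.1 CPM (log2 fold change -1.96 ± 0.28 (SE), adjusted p = 0.000235). KCS8 (AT2G15090), which was near the limit of detection, was at -4.80, or -5.70 without A28s, from 0.338 to 3.93 CPM to 0 to 0.166 CPM. KCS6 (AT1G68530), the main wax elongase of Arabidopsis, was 38.7 to 74.6 CPM in the controls and 83.8 to 156 CPM in drought (log2 fold change 0.98 ± 0.22 (SE), adjusted p = 0.00437), just under the fold threshold.

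The labelled tissue was checked against leaf markers. The mature leaf markers were high per length in the controls: Rubisco activase AT2G39730 at 14160 ± 2766 TPM, serine hydroxymethyltransferase at 6337 ± 853 TPM and the small subunit AT1G67090 at 4963 ± 1243 TPM. In drought these were 8218 ± 976, 1638 ± 681 and 1049 ± 496 TPM, and 3 of the 4 mature leaf markers fell. Both epidermis markers were not called: KCS10 (AT2G26250) was 115 ± 21.01 CPM in the controls and 117 ± 13.5 CPM in drought (log2 fold change 0.03 ± 0.16 (SE), adjusted p = 0.913), and KCS6 is given above. No named marker of vascular or guard cells was at hand, so that their part in the results was not tested.

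Of 21 markers of dividing cells first listed, 18 had neither a name nor a term in the study and were left out. Of the 3 tested 2 fell. These genes encode ribonucleotide reductase, which makes the building blocks of DNA. Its subunit TSO2 (AT3G27060) had 224, 172, 140.5, 154 and 125 CPM in the controls. It had 7.93, 3.73, 10.8, 7.70 and 7.08 CPM in drought. No library overlapped, and even A37s, the highest in drought, was far below the lowest control, A24c. The fall was 21.9-fold (log2 fold change -4.45 ± 0.29 (SE), adjusted p = 2.61e-06). RNR1 (AT2G21790) fell 6.25-fold, from 18.1 to 36.98 to 3.14 to 6.08 CPM, and RNR2A (AT3G23580) stood at -0.77 on the log2 scale and was not called. For TSO2 the T2 controls were above all 14 other well-watered libraries, which held 10.8 to 96.8 CPM. Among the study's terms, 9 of 18 genes of DNA recombination and 4 of 6 of microtubule-based movement were lower, and none was higher.

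Defence metabolism was divided. Glucosinolates are sulphur-rich defence compounds of the Brassicaceae, and beta-glucosidases of the myrosinase kind split them. Of 33 genes first listed for glucosinolate biosynthesis, 24 had neither a name nor a term in the study and were left out. Of the 8 tested 5 fell and none rose (median -1.54), and with lane as a term the number that fell was 1. UGT74B1 (AT1G24100), a glucosyltransferase of that pathway, was 30.9 to 119.5 CPM in the controls and 16.8 to 30.1 CPM in drought (log2 fold change -1.40 ± 0.38 (SE), adjusted p = 0.0115). With lane as a term it was at -0.85, adjusted p = 0.278. Of 22 genes tested under the study's term glucosinolate metabolic process, 8 fell and 1 rose (median -1.04). With lane as a term 3 of them fell and 4 rose.

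Of 11 beta-glucosidases 3 rose and 3 fell. BGLU28 (AT2G44460), which splits glucosinolates under sulphur shortage in Arabidopsis, had 14.2, 7.70, 0.267, 81.6 and 2.39 CPM in the controls. Droughted leaves had 885, 442, 565, 960.3 and 918 CPM. The controls spread very widely, with A22c highest and A16c lowest, and still lay wholly below the droughted libraries (log2 fold change 5.15 ± 1.15 (SE), adjusted p = 0.00399, or 6.94 without A22c). BGLU29 (AT2G44470), whose reads may be shared with BGLU28, rose in the same way, from 0.114 to 21.6 to 114 to 246 CPM (log2 fold change 5.04, or 6.64 without A22c). Both were high in the droughted T1 library, at 691 and 163 CPM.

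BGLU11 (AT1G02850) showed the smallest spread of the glucosidases, at 12.3, 10.4, 13.9, 13.4 and 12.8 CPM in the controls and 112, 89.2, 104, 91.1 and 116 CPM in drought. Neither group varied by more than a small part of the 8.15-fold rise (log2 fold change 3.03 ± 0.15 (SE), adjusted p = 6.9e-07). BGLU44 (AT3G18080) fell 10.5-fold, from 22.9 to 62.4 to 2.303 to 4.58 CPM.

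Glutathione genes moved in both directions. Of 14 glutathione S-transferases, which attach glutathione to reactive compounds, 5 fell and 2 rose (median -1.26), beside 16.6% and 11.6% of all genes tested. With lane as a term 1 fell and 2 rose, and with the lane 7 libraries left out 2 fell and 2 rose. GSTL3 (AT5G02790) rose 3.48-fold, from 74.3 to 114 to 140.2 to 399.6 CPM (log2 fold change 1.80 ± 0.27 (SE), adjusted p = 0.000378), and GSTU15 (AT1G59670) by 2.37 on the log2 scale. GSTF7 (AT1G02920), at no more than 1.87 CPM in any of the 10 T2 libraries, was at -2.72 and lost its call with lane as a term (adjusted p = 0.239). GGT1 (AT4G39640), a transpeptidase that splits glutathione outside the cell, fell 15.1-fold, from 8.37 to 35.96 to 0.780 to 2.22 CPM, and its relative GGT2 (AT4G39650) fell 19.3-fold.

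Of 15 phenylpropanoid genes 3 fell and 1 rose (median -0.58), a share close to the 28.2% called over all genes. The methyltransferase OMT1 (AT5G54160), of lignin and flavonol synthesis, had 57.3, 55.8, 46.8, 46.2 and 36.2 CPM in the controls and 349.5, 300.0, 253, 250.4 and 347 CPM in drought. The lowest droughted library was well above the highest control, with a rise of 6.19-fold (log2 fold change 2.63 ± 0.18 (SE), adjusted p = 3.57e-06). LDOX (AT4G22880), a late enzyme of anthocyanin synthesis, fell 27.6-fold, from 6.38 to 22.5 to 0.0415 to 1.34 CPM (log2 fold change -4.79, and -5.49 without A35s). Well-watered leaves of other days held 0.0452 to 10.97 CPM, which overlaps the droughted range. UDP-glycosyltransferases of the UGT85A group fell at 2 of 4 named features: UGT85A5 (AT1G22370) fell 9.83-fold and UGT85A2 (AT1G22360) was at -2.11, or -2.72 without A37s, and these near copies may share reads.

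Lipid genes included some of the steadiest rises. LCAT3 (AT3G03310), a phospholipase of the lecithin:cholesterol acyltransferase family, had 3.44, 2.64, 4.58, 8.23 and 3.04 CPM in the controls. Drought raised it to 115, 113, 134, 107 and 118 CPM. Droughted libraries were nearly equal and all far above the highest control, A22c, a rise of 26.7-fold (log2 fold change 4.74 ± 0.32 (SE), adjusted p = 3.05e-06). Diacylglycerol kinase 1 (DGK1, AT5G07920), which makes phosphatidic acid, rose 4.43-fold, from 22.1 to 49.7 to 92.7 to 148 CPM, and PLDP2 (AT3G05630), a phospholipase D, by 2.67 on the log2 scale. In contrast, the phospholipase PLA2-ALPHA (AT2G06925) fell 14.2-fold, from 4.85 to 20.6 to 0.712 to 1.50 CPM. Of 11 phospholipid genes 4 rose and 3 fell (median 0.58).

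Sterol and terpenoid genes fell at 5 of 12 and rose at 1 (median -0.69), beside 16.6% and 11.6% of all genes tested. TPS21 (AT5G23960), a sesquiterpene synthase, was 51.2, 150.5, 377, 12.1 and 65.8 CPM in the controls and 4.61, 1.13, 8.99, 1.66 and 5.52 CPM in drought. The controls were widely spread, A16c highest, without reaching the droughted range (log2 fold change -4.90 ± 0.91 (SE), adjusted p = 0.00132, or -3.98 without A16c). HYD1 (AT1G20050), a sterol isomerase, fell 3.71-fold, from 9.68 to 31.4 to 2.68 to 7.22 CPM. CYP710A3 (AT2G28850), a sterol desaturase, was scarce, at 0.496 to 1.71 CPM in the controls and 0 to 0.243 CPM in drought (log2 fold change -3.09).

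Central carbon breakdown moved in both directions. Of 11 genes of glycolysis and the pentose phosphate pathway 4 fell and 2 rose (median -0.54), and with lane as a term 2 fell and 2 rose. The aldolase FBA5 (AT4G26530) fell 4.22-fold, from 374 to 656 to 62.5 to 164 CPM (log2 fold change -2.08 ± 0.30 (SE), adjusted p = 0.000292), and the plastid glucose 6-phosphate dehydrogenase G6PD1 (AT5G35790) by 1.88 on the log2 scale. A pyruvate decarboxylase family member (AT5G01320) rose 4.57-fold, from 0.591 to 1.23 to 3.09 to 3.61 CPM.

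Of 5 genes of the glyoxylate cycle and fatty acid breakdown 2 rose and none fell. PKT4 (AT1G04710), a peroxisomal thiolase, rose 2.25-fold, from 64.2 to 84.5 to 147 to 176 CPM, with little spread in either group (log2 fold change 1.17 ± 0.13 (SE), adjusted p = 4.95e-05). CSY1 (AT3G58740), a peroxisomal citrate synthase, rose 4.04-fold and with lane as a term was at 1.95, adjusted p = 0.0575.

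The 4 genes with the largest changes of all had no name in the tables used. AT4G17030 went from 0.562, 0.0613, 0.0762, 0.217 and 0.0296 CPM in the controls to 152, 64.03, 144, 61.2 and 148 CPM in drought (log2 fold change 9.20 ± 0.66 (SE), adjusted p = 3.85e-06, or 10.08 without A9c). AT4G25580 went from 0.0887 to 0.767 to 86.1 to 211 CPM, with A35s highest (log2 fold change 8.50 ± 0.54 (SE), adjusted p = 2.38e-06). Both were close to 0 in every well-watered Mav library, at most 3.20 and 0.768 CPM in the 14 of other days.

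For the largest falls the T2 controls were also higher than most well-watered leaves of other days. AT2G41240 was 225, 206, 175, 199 and 34.4 CPM in the controls and 0, 0.126, 2.78, 0.195 and 0 CPM in drought (log2 fold change -8.06 ± 1.19 (SE), adjusted p = 0.000302, or -10.95 without A37s). Well-watered libraries of other days held 0 to 41.2 CPM and the rewatered ones 0 to 3.43 CPM, so that levels near 0 also occurred without drought. AT5G04150 was 72.5, 124, 58.7, 17.01 and 9.43 CPM in the controls and at 0 in every droughted library except A37s, which held 1.08 CPM (fitted log2 fold change -7.98, or -13.76 without A37s, and with most libraries at 0 these fitted values depend on the prior count). Its other well-watered libraries held 0.0312 to 11.7 CPM.

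Of 98 called genes among those named above, which were followed across all Mav libraries, the droughted libraries lay beyond all 19 well-watered libraries in 64. Over all called genes this held for 48.4% of the rises and 48.6% of the falls. The 98 were mostly named for large changes without overlap or with their values in view. Their counts thus do not stand for all called genes, and the place after rewatering was counted for the 98 alone. After rewatering, the STAY-GREEN-like gene, NYE1, alternative oxidase 1D, LCAT3, DELTA-OAT, beta CA1 and PORB all lay outside their droughted range. Beta CA1 was 1908 to 3505 CPM and PORB 398 to 1095 CPM in the 4 rewatered libraries, against 16.9 to 121 and 26.4 to 52.97 CPM at T2 on the same scaling. Of the 98 genes, 80 had all 4 rewatered libraries on the control side of the droughted range, 15 overlapped it, among them NCED5, LDOX, SIP2, SUS1, CSD2 and PEPCK, and 3 lay past it. Those 3 had fallen in drought and were lower still after rewatering. PEP carboxylase AT2G42600 was at 118 to 170.0 CPM, below 219 to 457 CPM in drought, alpha CA1 at 26.6 to 48.9 CPM, below 93.8 to 157 CPM, and GA3OX1 at 0.0995 to 0.305 CPM, below every droughted library. No test was made across these times, which differ in plant age.

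The response of Mav was last set against that of the C3 species Mmo, by testing the difference between the species' drought effects in 1 fit over 15 libraries. Of 22323 genes tested, 1158 (5.19%) differed, 542 (2.43%) more positive and 616 (2.76%) more negative in Mav. In that fit 6184 genes (27.7%) were called in Mav and 974 (4.36%) in Mmo, which had 3 droughted and 2 control libraries. The count of differing genes was 143 without the Mmo control M16c, 562 without M14c, 648 without the droughted M17s and 614 without M19s, and 349 with the nearly alike pairs A28s and A44s, and M17s and M19s, summed. The named genes were chosen with the Mav results known, so their share cannot be set beside the 5.19% of all genes. Of 103 of them, 45 differed, 15 of these also with the pairs summed, and 4 under each of 19 other settings.

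Those 4 were as follows. The STAY-GREEN-like gene rose by 7.26 ± 0.42 (SE) on the log2 scale in Mav and by 3.00 ± 0.52 in Mmo, a difference of 4.25 ± 0.57 (SE), adjusted p = 0.00149. DELTA-OAT rose by 4.28 ± 0.31 in Mav and was at 0.44 ± 0.40 in Mmo, a difference of 3.83 ± 0.49 (SE), adjusted p = 0.000893. Both genes rose further in Mav in these libraries. OMT1 was at 2.64 ± 0.20 in Mav and 0.34 ± 0.28 in Mmo, a difference of 2.304 ± 0.33 (SE), adjusted p = 0.00225. LCAT3 was at 4.75 ± 0.31 in Mav and 1.45 ± 0.40 in Mmo, a difference of 3.30 ± 0.46 (SE), adjusted p = 0.0019.

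Some other differences were large but were no longer called without M16c. Beta CA1 was at -6.08 ± 0.67 in Mav and -0.86 ± 0.76 in Mmo (difference -5.22 ± 1.07 (SE), adjusted p = 0.0139), and its adjusted p rose to 0.0585 with the pairs summed. PORB was at -3.59 ± 0.32 and -0.77 ± 0.41 (difference -2.82 ± 0.54 (SE), adjusted p = 0.00925), and PHS1 at -3.13 ± 0.20 and -0.96 ± 0.27 (difference -2.17 ± 0.34 (SE), adjusted p = 0.0039). For many genes no difference between species was called. SUS1 was at 2.04 ± 0.26 in Mav and 2.24 ± 0.39 in Mmo, THA1 at 2.90 ± 0.43 and 2.73 ± 0.65, ASP3 at 1.80 ± 0.27 and 2.40 ± 0.41, and ATP-PRT1 at -2.64 ± 0.23 and -2.83 ± 0.31.

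**Figure D5:**
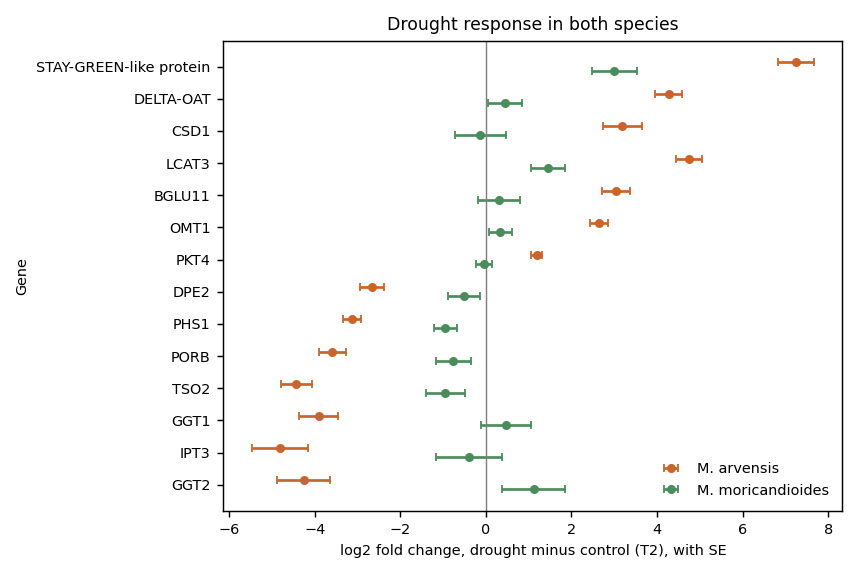
Log2 fold change of drought over control at T2 with its SE (horizontal axis) in Mav and in Mmo from the joint fit, for 14 genes (rows) whose responses differed between the species. Mav points lie farther from 0 than Mmo points in each row, as for the STAY-GREEN-like gene at 7.26 and 3.00. The genes were named with the Mav results known and shown because they differed, so this pattern follows in part from the choice.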

How the data were processed

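The authors extracted leaf RNA, sequenced it on Illumina machines and had the reads aligned to the coding sequences of TAIR 10 with BLAT in protein space, taking best-scoring mappings. They deposited estimated counts and TPM per feature for each library. Reads of several Moricandia copies can thus be counted on 1 Arabidopsis feature, and near-identical features can share reads.

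The deposited estimated counts, whole numbers in these files, were tested with edgeR 4.0.16 in R 4.3.3: genes with low counts were removed (filterByExpr), libraries scaled by TMM, and droughted and control libraries compared by the quasi-likelihood F-test with Benjamini-Hochberg adjustment. Calls needed an adjusted p below 0.05 together with a log2 fold change above 1 or below -1. CPM values are TMM-scaled counts per library total of 1000000, from the fit of the 10 libraries, while levels at other sampling times were scaled over all 29 Mav libraries. TPM values are as the authors deposited them and served for levels between genes and for limma 3.58.1, on log2(TPM + 1), with a pseudocount of 0.1 as a further setting. DESeq2 1.42.0 was another alternative. On simulated counts for the same comparison over 19613 genes, 73% of 200 genes changed by 2 on the log2 scale were recovered, and 2.67% of calls were unchanged genes. Read totals are given in the report as a range for each group.

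Gene lists and their members were chosen with earlier results of these data known. A gene entered a list only where the study's tables pair its ID with a name or term. Many lists thus hold only part of the genes first listed, such as 9 of 31 for starch and 11 of 25 for the Calvin-Benson cycle. The genes named were the 2 largest rises and 2 largest falls (a mean of at least 5 CPM in the higher group, no overlap), the 5 largest of each with a name, up to 2 called members of each list, and the markers. The other names were picked with their values in view. Members known by a term alone are counted, and few are given by ID. The lists of light-harvesting proteins, abscisic acid signalling, aquaporins, dehydrins, vascular and guard cell markers had no annotated member and gave no result.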

Additional observations from a re-analysis of the deposited data

Results flagged for a closer look

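For each of 103 named genes the most extreme library of each group of 5 was set against the rest by Dixon's test, with a limit of 0.71 for its gap over the range. Of 216 groups, which include the depth measures, 27 passed, where chance gives about 1 in 20. The droughted A35s stood apart in 7 groups, with 2564 CPM for Rubisco SSU (AT1G67090), against 1120 to 1254, 464 CPM for glycine cleavage system H protein (AT1G32470), against 223 to 265, and 1.298 CPM for ASN3 (AT5G10240), against 2.08 to 2.31. The same library had 8.71 CPM for CHLI2 (AT5G45930), against 12.9 to 14.5, 1690 CPM for ALDH7B4 (AT1G54100), against 2342 to 2575, and 211 CPM for AT4G25580, against 86.1 to 112. It further had 21375 features with a count, against 24347 to 24981. Among the controls, A16c stood apart, with 75.8 CPM for Rubisco activase (AT1G73110), against 55.4 to 59.6, 42.1 CPM for peroxisomal NAD-MDH (AT2G22780), against 18.5 to 23.7, and 80.0 CPM for GH9C2 (AT1G64390), against 7.70 to 22.1. The droughted A37s stood apart, with 21.5 CPM for Rubisco activase (AT1G73110), against 26.3 to 27.5, 222 CPM for cytosolic GS1 (AT1G66200), against 146 to 152, and 358 CPM for SUS1 (AT5G20830), against 147 to 206. The same library had 2.22 CPM for GGT1 (AT4G39640), against 0.780 to 1.08, 2.78 CPM for AT2G41240, against 0 to 0.195, and 1.08 CPM for AT5G04150, against 0 in each of the others. It further had 1.53 CPM for AT5G65730, against 0.0419 to 0.240, 1.22 CPM for AT2G06850, against 0.0419 to 0.374, and 18.6 CPM for UGT85A2 (AT1G22360), against 2.83 to 6.95. A39s stood apart, with 915 CPM for FBP aldolase (AT2G21330), against 1388 to 1556. The control A15c was also high, with 7530 CPM for serine hydroxymethyltransferase (AT4G37930), against 5333 to 5803, 49.7 CPM for DGK1 (AT5G07920), against 22.1 to 26.1, and 3.47 CPM for AT1G17870, against 0.502 to 0.794. The control A22c was far above the others, with 81.6 CPM for BGLU28 (AT2G44460), against 0.267 to 14.2, 21.6 CPM for BGLU29 (AT2G44470), against 0.114 to 5.09, and 1.23 CPM for a pyruvate decarboxylase family member (AT5G01320), against 0.591 to 0.613. The control A24c was low, with 34.4 CPM for AT2G41240, against 175 to 225.

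In 45 of these 103 named genes the drought effect differed between Mav and Mmo by the test of the difference itself (edgeR, adjusted p under 0.05). Values below are the log2 fold change of Mav minus that of Mmo, and the named genes were chosen with Mav results known. More positive in Mav were AT4G17030 at 5.76, STAY-GREEN-like protein (AT4G11910) at 4.25, DELTA-OAT (AT5G46180) at 3.83 and AT1G17870 at 3.73. Positive differences were also found for PGDH (AT1G17745) at 3.49, CSD1 (AT1G08830) at 3.31, LCAT3 (AT3G03310) at 3.30 and alternative oxidase 1D (AT1G32350) at 2.85. Further positive differences were those of BGLU11 (AT1G02850) at 2.75, AT4G21320 at 2.42, CSD2 (AT2G28190) at 2.36 and OMT1 (AT5G54160) at 2.304. To these were added NYC1 (AT4G13250) at 2.29, beta CA6 (AT1G58180) at 2.15, NYE1 (AT4G22920) at 2.13 and peroxisomal NAD-MDH (AT2G22780) at 1.97. The remaining positive differences were KCS6 (AT1G68530) at 1.80 and PKT4 (AT1G04710) at 1.23. More negative in Mav were AT2G06850 at -6.49, GGT2 (AT4G39650) at -5.38, beta CA1 (AT3G01500) at -5.22, IPT3 (AT3G63110) at -4.42 and GGT1 (AT4G39640) at -4.38. Mav was also lower relative to Mmo for UGT85A5 (AT1G22370) at -3.65, TSO2 (AT3G27060) at -3.49, UGT85A2 (AT1G22360) at -3.46, PORB (AT4G27440) at -2.82 and TL29 (AT4G09010) at -2.61. Further negative differences were those of BGLU44 (AT3G18080) at -2.59, PEPCK (AT4G37870) at -2.54, PLA2-ALPHA (AT2G06925) at -2.45, Rubisco SSU (AT5G38410) at -2.38 and FBA5 (AT4G26530) at -2.31. The list went on with HYD1 (AT1G20050) at -2.26, PHS1 (AT3G29320) at -2.17, DPE2 (AT2G40840) at -2.16, CHLI2 (AT5G45930) at -2.12 and LUT2 (AT5G57030) at -2.12. Negative too were RNR1 (AT2G21790) at -2.05, ASN3 (AT5G10240) at -1.69, hydroxypyruvate reductase (AT1G68010) at -1.67, glycine cleavage system H protein (AT1G32470) at -1.45 and plastidic NAD-MDH (AT3G47520) at -1.38. The remaining negative differences were POR_C (AT1G03630) at -1.34 and peroxisomal NAD-MDH (AT5G09660) at -1.22. Of these 45 differences 39 were lost without the Mmo control M16c, and 4 (the STAY-GREEN-like gene, DELTA-OAT, OMT1 and LCAT3) were kept under all 19 other settings.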

How the results depend on the processing

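Both counts of called genes moved by less than 1.5 times under all 25 other settings except a test against the fold threshold itself (edgeR's glmTreat), which called 1047 higher and 1677 lower. Leaving out each library in turn gave 2110 to 2367 higher and 2980 to 3399 lower. DESeq2 called 2606 and 3991, and limma on log2(TPM + 1) 1988 and 2518. With A28s and A44s both left out, a setting chosen after seeing the data, the counts were 2316 and 2906. The difference between species moved most: DESeq2 called 2379 genes, summing the nearly alike pairs 349, and leaving out single libraries gave 143 to 1439. The cause was not tested. The settings were followed gene by gene for 103 of the named genes. Over their 2575 values, 2520 kept their direction and side of the threshold, and 78 genes did so under every setting. The other genes in the text, given without CPM values, were not followed in this way. Among the 103 genes, lane as a term ended 8 calls (PEPCK, PORA, PGDH, TPPE, UGT74B1, GSTF7, VTE1 and CSY1). Taking all 19 well-watered libraries as controls ended 10 (PEPCK, PEP carboxylase AT2G42600, alpha CA1, GA3OX1, SIP2, SUS1, CSD2, UGT74B1, LDOX and VTE1). The sign turned for alpha CA1 with all well-watered controls (0.02), and for KCS10, never called, with all well-watered controls (-0.23), with lane as a term (-0.060), with lane 1 left out (-0.099), and without A15c (-0.038), A35s (-0.011) or A44s (-0.00335), its values without single libraries running from -0.038 to 0.12. No paired analysis was possible because droughted and control T2 libraries share no plant or replicate label. The common dispersion corresponds to a coefficient of variation of 0.415 between replicates, and genes under about 1 CPM, such as KCS8, GSTF7 and CYP710A3, rest on few counts.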
